A study of Mus musculus with 4 samples.

Results

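Guidance genes of the semaphorin, netrin and Slit guidance systems were followed in Flk-1+ mesodermal cells with and without activity of a Hoxb6 reporter. They were the receptor gene Plxnd1, the semaphorins Sema3a, Sema3c, Sema3e, Sema3f and Sema6a, the netrin gene Ntn1 with its receptor gene Unc5b, and Slit2 and Slit3. Members were taken as all non-control array probes whose transcript accession maps to 1 of these 10 symbols, which gave 14 of 55681 probes and 10 of the 20660 genes that the array could name. The rule itself uses gene names and no measured value, although the genes were proposed with earlier results of these data known. The cells were mouse ES cells of the line EB5 carrying a Hoxb6-Venus reporter. They had been differentiated for 6 days on OP9 cells, a mouse bone marrow stromal feeder line, stained for Flk-1 and separated by sorting. The Flk-1+Hoxb6-Venus- fraction (Venus-negative) and the Flk-1+Hoxb6-Venus+ fraction (Venus-positive) were each represented by 2 single-colour Agilent arrays, 4 in all. Both fractions share the ES line, the reporter, the feeder and the Flk-1 gate, and because OP9 cells are of mouse origin their transcripts are read by the same probes. The labels do not say if replicates were separate cultures, so each p-value reflects how far these particular samples spread, possibly for technical reasons alone.

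Guidance ligands were first studied in growing axons, and the same ligand and receptor families act on blood vessels. Class 3 semaphorins are secreted and signal through neuropilins paired with A-type plexins, whereas Sema3e binds Plxnd1 directly and restrains the sprouting that VEGF drives in endothelium. Netrin-1 acts through the attractive receptors Dcc and Neo1 and the repulsive receptors of the UNC5 family, of which Unc5b is the one known from endothelial tip cells. Slits bind Robo receptors, and Robo4 is the endothelial member of that family.

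On each array 50.7% to 53.0% of non-control spots were well above background, with 0 saturated, and 4 arrays allow limited precision. The 4 arrays shared 1 slide and 1 scan. Replicate 1 of both fractions lay in slide row 1 and replicate 2 in row 2, whereas the column was 2 for both Venus-negative and 3 for both Venus-positive arrays, so column and fraction cannot be told apart. Hoxb6 itself, whose reporter defined the sort, had a log2 change of 1.01 ± 0.16 SE (limma adjusted p = 0.0716). Kdr, the gene of Flk-1, was well above background on all 4 arrays, with a log2 change of 0.44 ± 0.11 (limma adjusted p = 0.138).

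In the Venus-positive cells 1 of the 10 genes was higher, the semaphorin receptor gene Plxnd1, and 1 was lower, the ligand gene Slit3. A call was an adjusted p under 0.05 (limma, Benjamini-Hochberg, over 23547 features), and 2.83% of the 13925 named genes tested were called in either direction. All 10 genes passed the filter on dim probes with their brightest probe well above background on all 4 arrays, so none entered the test through 1 fraction alone. Of the log2 changes (Venus-positive minus Venus-negative), 3 were positive and 7 negative, with a median of -0.93, against a median of 0.01 over all named genes tested. At an unadjusted p under 0.05, 3 members were higher and 4 lower, where 26.0% of all named genes passed in either direction. In 9 of 10 genes the arrays of the fractions did not overlap, against 61.7% of all named genes. Of these 3 were higher (32.3% of all named genes) and 6 lower (29.5%), and the exception was Sema3c. In bulk RNA, fewer cells that express a gene and less of its RNA per cell cannot be told apart.

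**Figure D1:**
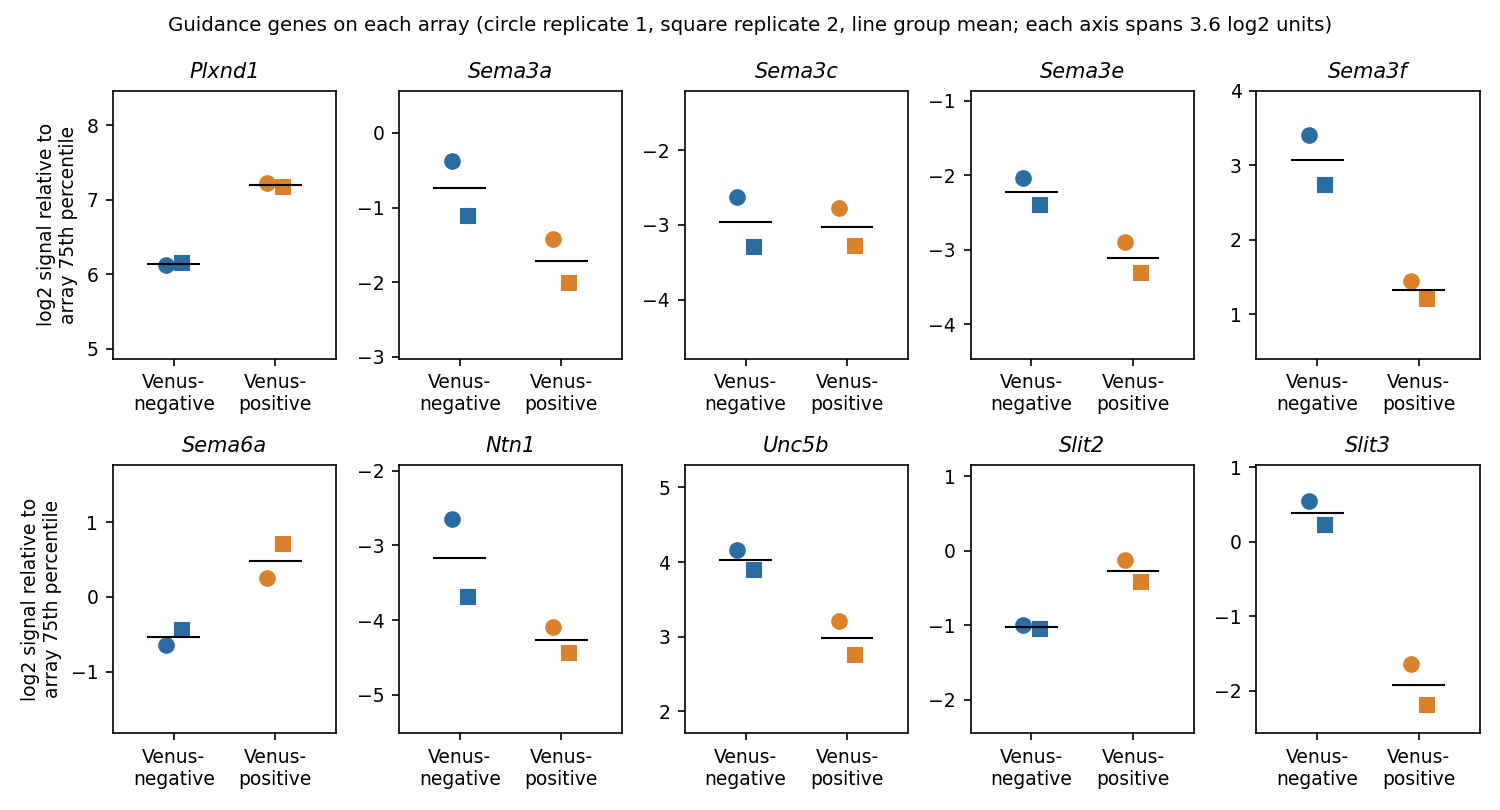
Normalised log2 signal (log2 processed signal minus that of the array's 75th percentile, vertical axis) of the 10 genes on each array; blue points are Venus-negative and orange points Venus-positive, circles replicate 1, squares replicate 2, and the line is the mean of 2 arrays. Every panel spans the same range of log2 units, so the distances can be compared but not the levels: Plxnd1 moves from 6.13 to 7.20, Slit3 from 0.38 to -1.92, and the arrays overlap in the Sema3c panel.

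Plxnd1 encodes plexin D1, the receptor of Sema3e on endothelial cells. On its brightest probe the processed signal was 27506 and 24572 without and 64305 and 57123 with Venus. Both Venus-positive values lay above both Venus-negative values, and replicates differed far less than fractions. On the normalised log2 scale the level rose from 6.13 ± 0.02 (SD, n = 2) to 7.20 ± 0.04 (SD, n = 2), so that Plxnd1 was 2.09-fold higher (log2 change 1.06 ± 0.10 SE, limma adjusted p = 0.0395; higher genes made up 0.984% of those tested). The other Plxnd1 probe read 1753 and 1424 against 5173 and 4341. It gave a 2.69-fold higher signal (1.43 ± 0.11 SE, limma adjusted p = 0.0332 over 27897 probes, of which 2.44% were called). The difference was 1.11 in slide row 1 and 1.02 in row 2 for the brightest probe.

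Sema3e, the ligand that binds plexin D1 without a neuropilin, had lower values where its receptor gene was higher. Its single probe read 96.1 and 66.1 in Venus-negative against 57.5 and 40.1 in Venus-positive cells, with no overlap. The log2 change was -0.89 ± 0.22 SE, with a 95% interval from -1.51 to -0.27, and did not pass over all features (limma adjusted p = 0.130). The difference was -0.86 in row 1 and -0.92 in row 2. Sema4a, a transmembrane semaphorin that can also bind plexin D1, fell 2.94-fold (log2 change -1.55 ± 0.14 SE, limma adjusted p = 0.0386).

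Sema3f, a ligand that signals chiefly through Nrp2, had the largest difference among the semaphorin members. Its processed signal was 4216 and 2319 in Venus-negative against 1171 and 924 in Venus-positive cells. The fractions did not overlap, but the Venus-negative replicates lay far apart. Without Venus the level was 3.08 ± 0.48 (SD, n = 2), and with it 1.33 ± 0.17 (SD, n = 2). The 3.35-fold lower value (log2 change -1.75 ± 0.27 SE) missed the threshold in limma with an adjusted p of 0.0752. The limma adjusted p was 0.0310 when the background was instead corrected with normexp, a model of signal plus background. With a variance prior that depends on signal it was 0.0281, and with same-numbered replicates blocked 0.0498. The other processing alternatives gave values from 0.0654 to 0.207, the highest with dim probes kept.

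Sema3a, the founding repellent of the class and a ligand of Nrp1, read 304 and 161 in Venus-negative against 161 and 98.4 in Venus-positive cells. The lower Venus-negative and the higher Venus-positive array thus gave nearly the same raw signal (161.1 and 160.7). The gap between these arrays was clearer after scaling by the arrays' 75th percentiles (normalised log2 signal -1.11 and -1.42). Its log2 change was -0.97 ± 0.35 SE (95% interval from -1.98 to 0.03, limma adjusted p = 0.221). The other Sema3a probe gave -0.86 ± 0.24 SE (limma adjusted p = 0.151). Sema3c, a ligand of both neuropilins known from the cardiac outflow tract, read 64.0 and 35.2 in Venus-negative and 62.8 and 40.8 in Venus-positive cells. These ranges overlapped, with a log2 change of -0.07 ± 0.32 SE. The 95% interval ran from -0.98 to 0.84, so a change within those bounds is not excluded. The sign of the Sema3c value turned under other scalings, to 0.028 with quantile normalization. The other Sema3c probe was not well above background on any array, with signals from 2.68 to 3.53.

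Sema3a, Sema3e and Sema3c lie on mouse chromosome 5 together with Sema3d. In the RefSeq annotation 0 protein-coding genes separate Sema3d from Sema3a, 3 separate Sema3a from Sema3e, and 15 separate Sema3e from Sema3c. Sema3d was not well above background on any array. Of these neighbours, Sema3a and Sema3e had lower Venus-positive values on every array and Sema3c did not.

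Sema6a, a transmembrane semaphorin that binds plexins A2 and A4, had higher values in Venus-positive cells, unlike the class 3 members. It read 254 and 256 in Venus-negative against 514 and 652 in Venus-positive cells. Both Venus-positive arrays stood above both Venus-negative arrays. The 2.03-fold difference (log2 change 1.02 ± 0.20 SE, 95% interval from 0.45 to 1.60) did not pass in limma (adjusted p = 0.101). Of its receptors, Plxna2 had a log2 change of -1.04 ± 0.20 SE (adjusted p = 0.0961) and Plxna4 of 0.32 ± 0.48 SE (adjusted p = 0.734).

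**Figure D2:**
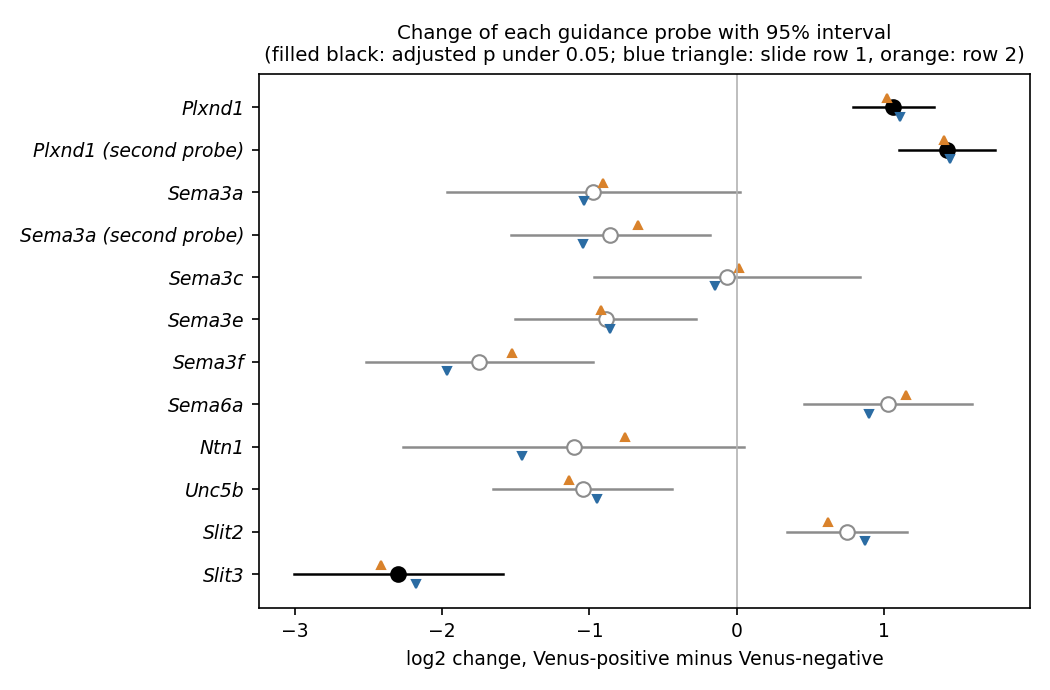
Log2 change (Venus-positive minus Venus-negative, horizontal axis) of the 12 member probes that passed the filter, with its 95% interval from limma; filled black points have an adjusted p under 0.05 over all probes, and blue and orange triangles are the differences within slide rows 1 and 2. Both Plxnd1 probes and Slit3 are filled, and within every probe except that of Sema3c the 2 rows lie on the same side of 0.

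Ntn1 encodes netrin-1, a laminin-related ligand. Its brightest probe read 63.4 and 26.9 in Venus-negative and 25.1 and 18.3 in Venus-positive cells, all well above background but low. The fractions did not overlap, and the Venus-negative replicates differed by more than a log2 unit. The log2 change was -1.11 ± 0.41 SE (95% interval from -2.27 to 0.06, limma adjusted p = 0.228), and -0.44 with normexp. The other Ntn1 probe was not well above background on any array (signals from 2.37 to 4.33).

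Unc5b, the repulsive netrin receptor of vascular endothelium, read 7089 and 5155 in Venus-negative against 3979 and 2682 in Venus-positive cells. Both Venus-positive values were lower than both Venus-negative ones. Its level was 4.03 ± 0.19 (SD, n = 2) against 2.98 ± 0.33 (SD, n = 2), a 2.06-fold lower value (log2 change -1.05 ± 0.22 SE, 95% interval from -1.66 to -0.43). This missed the threshold in limma (adjusted p = 0.107). The limma adjusted p was 0.0479 with normexp and 0.0451 with the signal-dependent prior. Under the other processing alternatives it lay between 0.0508, with same-numbered replicates blocked, and 0.267, with dim probes kept. The related receptor gene Unc5c had a log2 change in the other direction, 0.81 ± 0.14 SE (adjusted p = 0.0805); whether the receptors' changes differ was not tested. Dcc stood at -0.07 ± 0.34 SE and Neo1 at 0.44 ± 0.16 SE (limma adjusted p = 0.921 and 0.228). The Dcc value rests on its brightest probe, with signals from 7251 to 11074. The other Dcc probes were not well above background on any array (signals from 2.47 to 4.72), a disagreement that was not examined. The UNC5 ligand genes Flrt2 and Flrt3 stood at 0.52 ± 0.25 and 0.14 ± 0.29 SE (adjusted p = 0.308 and 0.809).

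Slit3 had the deepest difference of the 10 genes. Its processed signal was 575 and 404 in Venus-negative against 138 and 86.9 in Venus-positive cells, so that every Venus-positive value was below every Venus-negative one. The level went from 0.38 ± 0.23 (SD, n = 2) to -1.92 ± 0.40 (SD, n = 2), and Slit3 fell 4.91-fold (log2 change -2.30 ± 0.25 SE). With a limma adjusted p of 0.0489 it lay just inside the threshold; lower genes made up 1.85% of those tested. The difference was -2.18 in row 1 and -2.42 in row 2. Slit2, which shares the Robo receptors with Slit3, went the other way. It read 198 and 168 in Venus-negative and 394 and 297 in Venus-positive cells, without overlap. The log2 change of 0.75 ± 0.14 SE (95% interval from 0.34 to 1.16) did not pass in limma (adjusted p = 0.0983). Its 95% interval and that of Slit3, from -3.01 to -1.58, did not overlap, while the difference between the genes was not itself tested.

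The Slit genes share a feature that the choice of members did not use: each contains a gene of the same microRNA. Mir218-1 lies within Slit2 and Mir218-2 within Slit3 in RefSeq's annotation of GRCm38.p6. Their 5p arms are at chr5:48223966-48223986 and chr11:35616840-35616860, and their 3p arms at chr5:48224005-48224026 and chr11:35616882-35616903, all on the plus strand. The mature products are shown because the 5p arm is identical at both hosts while the 3p arms differ, so a 5p product cannot be assigned to a host by its sequence. Capitals mark the seed, bases 2 to 8 from the 5′ end. The arrays gave no level for these microRNAs, and how they followed their hosts was not measured here.
mmu-miR-218-5p (Slit2 and Slit3): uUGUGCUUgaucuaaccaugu
mmu-miR-218-1-3p (Slit2): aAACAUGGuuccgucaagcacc
mmu-miR-218-2-3p (Slit3): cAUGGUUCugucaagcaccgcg

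No Robo receptor gene was called. Robo1, which binds both Slits, had a log2 change of 0.02 ± 0.18 SE (limma adjusted p = 0.951, 95% interval from -0.49 to 0.54), and Robo2 of 0.55 ± 0.20 SE (adjusted p = 0.217). Robo4, the endothelial Robo gene and also 1 of the endothelial markers below, stood at 0.92 ± 0.47 SE (adjusted p = 0.332), its Venus-negative replicates having spread widely (SD 0.83, n = 2). Downstream of Robo1, the Slit-Robo GAP gene Srgap1 rose 2.72-fold (log2 change 1.45 ± 0.13 SE, limma adjusted p = 0.0402). Its other probes gave 1.03 ± 0.10 and 1.02 ± 0.11 SE, also past the threshold over all probes (limma adjusted p = 0.0401 and 0.0436).

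Promoter sequences are shown for the 3 members with lower Venus-positive values in every array whose 250 bases before the annotated start, in RefSeq's GRCm38.p6 table, lie outside the annotated gene; 7 of the 10 genes had an entry there and 4 such windows lay outside the gene. They are printed to show how unlike these windows are. Capitals mark every match, on either strand, to 6 short motifs. Among 32851 promoter windows of the same length, 32.7% hold the GC box GGGCGG, 12.0% hold the ETS core CCGGAA and 9.99% hold the GATA letters AGATAA. The SOX letters AACAAT occur in 9.42%, the FOX letters GTAAACA in 3.17% and the TATA box TATAAA in 12.4% of them. Adjacent GC box matches overlap in 1 place in the Slit3 window.
Sema3e, plus strand, chr5:14025026-14025275: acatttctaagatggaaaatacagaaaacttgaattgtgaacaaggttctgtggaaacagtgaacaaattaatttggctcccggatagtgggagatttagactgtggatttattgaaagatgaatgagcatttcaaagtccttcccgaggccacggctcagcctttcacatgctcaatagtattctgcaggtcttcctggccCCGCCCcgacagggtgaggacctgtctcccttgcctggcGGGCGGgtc
Unc5b, minus strand, chr10:60831582-60831831: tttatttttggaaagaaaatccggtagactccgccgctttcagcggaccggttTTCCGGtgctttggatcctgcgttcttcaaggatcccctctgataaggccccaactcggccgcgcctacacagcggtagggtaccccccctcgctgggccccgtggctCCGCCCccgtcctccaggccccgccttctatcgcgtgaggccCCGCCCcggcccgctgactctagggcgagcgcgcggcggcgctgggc
Slit3, plus strand, chr11:35121206-35121455: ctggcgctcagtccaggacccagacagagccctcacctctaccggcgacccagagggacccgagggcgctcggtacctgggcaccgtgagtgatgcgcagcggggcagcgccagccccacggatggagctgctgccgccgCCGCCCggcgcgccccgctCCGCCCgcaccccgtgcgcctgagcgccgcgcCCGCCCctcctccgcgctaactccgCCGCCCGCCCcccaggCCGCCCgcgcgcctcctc

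The Slit3 window held 6 GC box matches and 35 CpG dinucleotides at 78.8% G+C, that of Unc5b 2 GC box matches and 1 ETS match with 27 CpG at 66.8%, and that of Sema3e 2 GC box matches with 7 CpG at 48.0%. The median window had 52.4% G+C and 6 CpG. No match to the GATA, SOX, FOX or TATA letters occurred in these 3 windows, which says only that those letters are not in them. Sema3c, whose values did not separate, also had a G+C-rich window (78.4%, 39 CpG, 3 GC box matches).

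The 10 genes belong to pathways of 96 listed genes, of which 88 were tested, 3 rose and 3 fell, beside 2.83% of all named genes called. Besides Plxnd1, Srgap1 and Arhgef12 rose, the product of the last binding B-type plexins (2.32-fold, log2 change 1.22 ± 0.10 SE, limma adjusted p = 0.0355). Besides Slit3, Sema4a and Dpysl4 fell, the latter a collapsin response mediator of the semaphorin pathway (2.18-fold, -1.12 ± 0.12 SE, adjusted p = 0.0469). Dpysl4 was not called with median centring, where Sema3g was called instead. The 78 tested genes other than the members had a median log2 change of 0.13, of which 2 were higher and 2 lower. The medians by role lay between -0.62 for netrins and RGM ligands and 0.51 for Slits, Robo receptors and Slit-Robo GAPs.

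Of 7 class 3 semaphorin genes 6 were tested and 0 were called in limma (1 higher and 2 lower at an unadjusted p under 0.05). Sema3g, an endothelial class 3 gene, had a log2 change of 1.57 ± 0.25 SE (adjusted p = 0.0773) with 1 Venus-negative array below the background criterion; Sema3b stood at -0.05 ± 0.10 SE (adjusted p = 0.802). Of 13 transmembrane and anchored semaphorin genes, all tested, 1 fell (Sema4a) and 0 rose. Sema4f was not well above background in Venus-negative cells and was at least 2.25-fold higher in Venus-positive cells, where for each Venus-negative array the higher of its own signal and the lowest signal well above background was taken (limma adjusted p = 0.0613). Of 11 plexin and neuropilin genes 10 were tested, and Plxnd1 alone was called. Plxnc1, the receptor gene of Sema7a, stood at 1.28 ± 0.31 SE (adjusted p = 0.128), Plxna1 at 0.26 ± 0.12 SE and Plxna3 at -0.36 ± 0.14 SE (adjusted p = 0.304 and 0.249).

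Neither neuropilin gene, through which class 3 semaphorins other than Sema3e signal, was called. Nrp1 was at 1.13 ± 0.14 (SD, n = 2) without and 1.07 ± 0.05 (SD, n = 2) with Venus, a log2 change of -0.06 ± 0.12 SE with a 95% interval from -0.40 to 0.29. Nrp2 stood at -0.12 ± 0.13 SE (95% interval from -0.50 to 0.26). The limma adjusted p was 0.818 and 0.649. A change within those intervals is not excluded, and the intervals do not say how large a change had to be for a call.

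Among 9 netrin and RGM ligand genes only 4 were tested, the other 5 (Ntn4, Ntn5, Ntng1, Ntng2 and Rgmb) being well above background on 0 arrays. All 4 had negative log2 changes and 0 were called in limma (0 higher and 2 lower at an unadjusted p under 0.05), among them Ntn3 at -0.83 ± 0.21 SE and Rgma, a ligand of Neo1, at -0.40 ± 0.10 SE (adjusted p = 0.139 and 0.131). Of 10 netrin receptor and UNC5 ligand genes 9 were tested and 0 called in limma (1 higher and 1 lower at an unadjusted p under 0.05). Here Unc5a stood at -0.95 ± 0.65 SE and Flrt1 at 0.83 ± 0.31 SE (adjusted p = 0.451 and 0.233). Of 36 intracellular effectors, all tested, 1 rose (Arhgef12) and 1 fell (Dpysl4). Sh3bp1, a GTPase-activating protein that binds plexin D1, had a log2 change of -1.13 ± 0.20 SE (adjusted p = 0.0846).

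**Figure D3:**
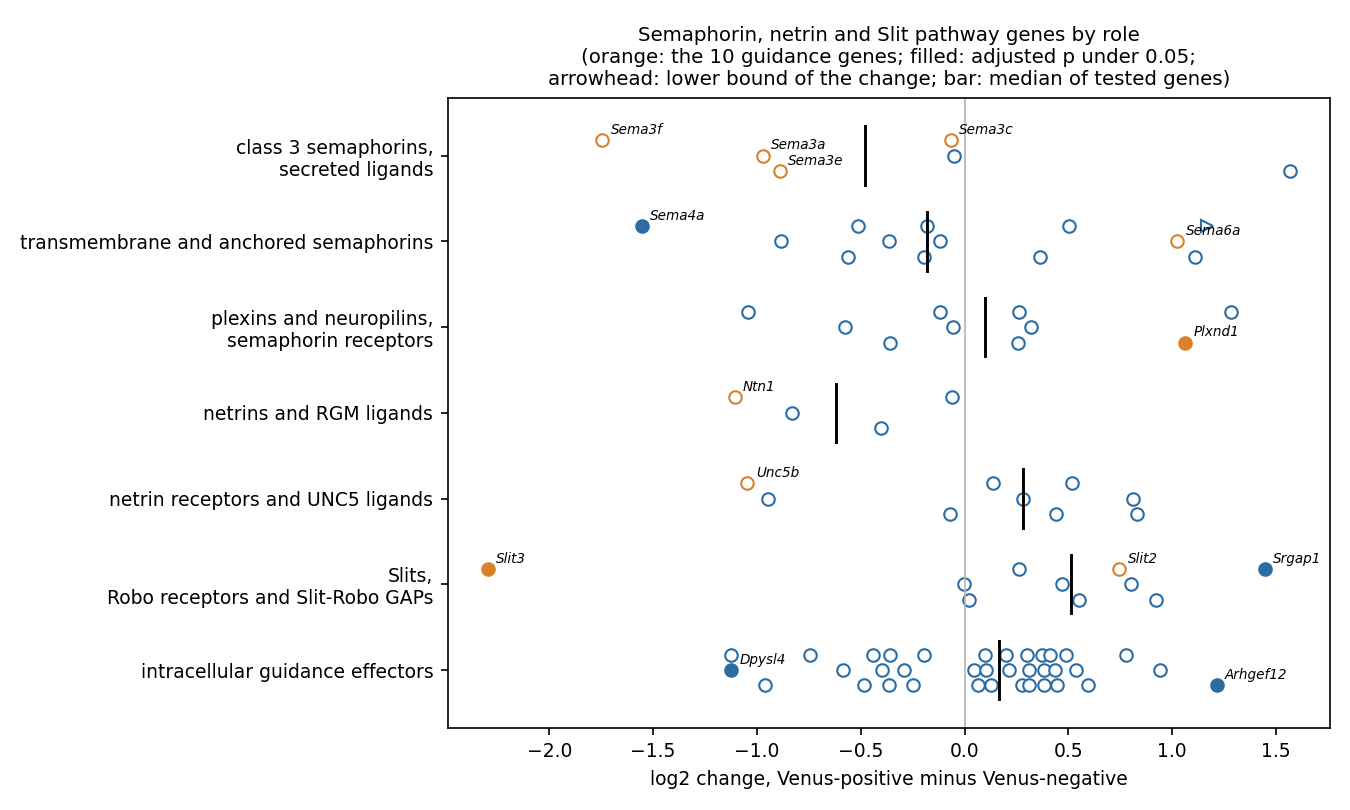
Log2 change (horizontal axis) of the tested semaphorin, netrin and Slit pathway genes, grouped by role (vertical axis); orange marks the 10 members, filled symbols an adjusted p under 0.05, the arrowhead a lower bound, and black bars the median of each group. Plxnd1, Arhgef12 and Srgap1 are filled on the right, and Slit3, Sema4a and Dpysl4 on the left.

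Marker genes of some cell types also differed between the fractions and are given as values. All 14 endothelial markers had positive log2 changes (median 1.43) and 4 rose (Esam, Tek, Sox18 and Mmrn2). Their summed level was taken in multiples of each array's 75th percentile. It was 216 and 271 in Venus-negative and 470 and 552 in Venus-positive cells, in the direction of Plxnd1, Sema6a and Slit2. Egfl7, which was not called (log2 change 0.71 ± 0.16 SE, limma adjusted p = 0.119), made up the largest part of it on every array. All 12 primitive streak and nascent mesoderm markers had negative changes and 8 fell (Mixl1, Eomes, Mesp1, Gsc, Wnt3, Fgf5, Tdgf1 and Lhx1; median -4.40 with dim genes at their bound; summed level 64.8 to 79.5 in Venus-negative and 19.1 to 32.7 in Venus-positive cells), in the direction of Slit3, Sema3f and Unc5b. Smooth muscle and pericyte markers had 7 negative changes among 7 tested, also in the direction of Slit3, Sema3f and Unc5b. Of these markers Rgs5 (at least 12.5-fold lower) and Notch3 fell. Their summed levels were 49.2 to 73.0 in Venus-negative and 32.9 to 52.5 in Venus-positive cells, and Myh11 was well above background on no array.

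Stromal, fibroblast and adipocyte markers, which OP9 cells could contribute, were present in both fractions. Of 14 such genes 13 were tested and 0 called in limma (0 higher and 2 lower at an unadjusted p under 0.05), with a median log2 change of -0.32 and a summed level of 71.6 to 78.2 in Venus-negative and 46.8 to 65.4 in Venus-positive cells. Neural markers, which matter because many guidance genes are neural, were low, with a summed level of 6.54 and 6.73 against 8.03 and 9.85, and Pax6, Neurod1, Neurog2 and Foxd3 were well above background on no array. Of 10 neural genes 6 were tested and 1 fell (1 higher and 2 lower at an unadjusted p under 0.05). Tubb3, a tubulin of neurons, fell (log2 change -2.61 ± 0.27 SE, limma adjusted p = 0.0463). Nes, an intermediate filament gene of neural and other progenitors, made up most of the summed level and had a log2 change of 0.89 ± 0.18 SE (limma adjusted p = 0.105). Blood markers had 8 tested members, of which 0 were called in limma (0 higher and 1 lower at an unadjusted p under 0.05), and Ptprc, which marks white blood cells, was below the background criterion on all arrays. The 6 pluripotency markers had 0 calls in limma (0 higher and 1 lower at an unadjusted p under 0.05). The lower gene, Pou5f1, had a log2 change of -2.38 ± 0.34 SE without overlap of the fractions (limma adjusted p = 0.0663). Summed levels were 14.2 to 17.1 in Venus-negative and 14.5 to 20.0 in Venus-positive cells. Klf4, with a log2 change of 0.51 ± 0.21 SE (limma adjusted p = 0.254), made up most of them. The part of these cell types in the guidance gene differences was not tested.

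**Figure D4:**
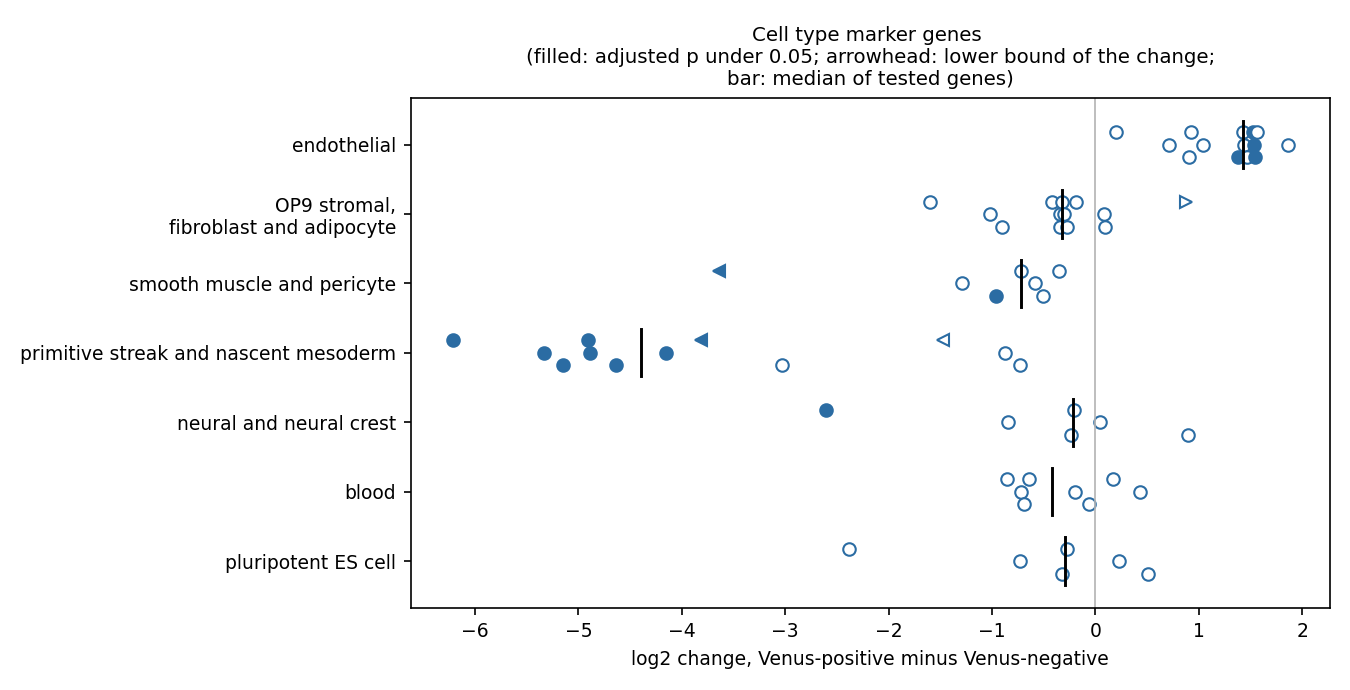
Log2 change (horizontal axis) of the tested cell type markers by list (vertical axis); filled symbols have an adjusted p under 0.05, arrowheads are lower bounds, and black bars are medians with dim genes at their bound. Endothelial markers lie to the right of 0 (median 1.43) and primitive streak markers to the left (median -4.40).

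The calls rested on all 4 arrays. Without any 1 array (Venus-negative replicate 1 or 2, or Venus-positive replicate 1 or 2) 0 genes passed in limma anywhere on the array, and Plxnd1 had an adjusted p from 0.139 to 0.186 and Slit3 from 0.137 to 0.180. The log2 change of Plxnd1 ranged from 1.03 to 1.09 and that of Slit3 from -2.58 to -2.02. Of the members, only Sema3c changed sign among these fits. The Ntn1 change had the widest range of the members, from -1.63 without Venus-negative replicate 2 to -0.58 without Venus-negative replicate 1. With dim probes kept in the test, 0 genes passed and the adjusted p was 0.146 for Plxnd1 and 0.158 for Slit3.

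**Figure D5:**
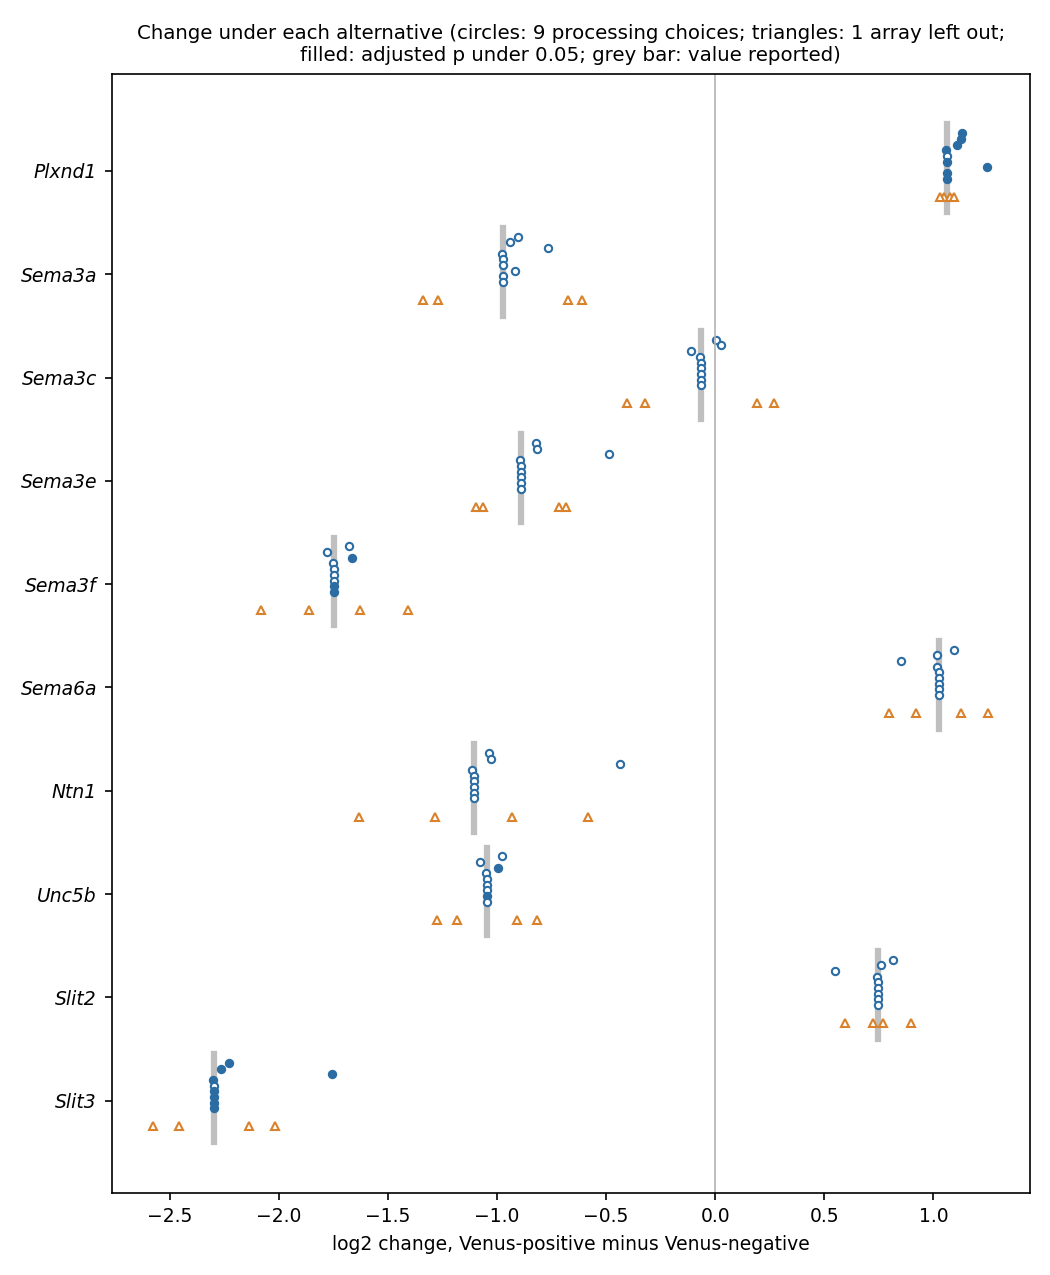
Log2 change of the 10 genes (horizontal axis) under 9 processing alternatives (blue circles) and with 1 array left out (orange triangles); filled symbols have an adjusted p under 0.05 and the grey bar is the value reported. The triangles of Plxnd1 lie between 1.03 and 1.09, those of Ntn1 between -1.63 and -0.58, and only the symbols of Sema3c fall on both sides of 0.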

How the data were processed

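The authors deposited the scanner output of each array (intensity per spot; Feature Extraction 10.10.1.1 according to the file headers) and their own linear intensity values, which equal the processed signal multiplied by 2.15, 2.44, 1.98 and 2.11 on the 4 arrays; how those factors were set is not given in the sources used here. The processed signal had its background subtracted and spatial trends removed array by array, per the file headers, and was not scaled across arrays. Gene names came from a RefSeq table (GRCm38.p6) by unversioned accession: 27235 of 55681 probes matched 1 symbol. Probe coordinates of the array design (build mm9) were not used here.

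Control and outlier spots were left out, log2 signals were centred on each array's 75th percentile, spots of a probe were averaged, and a probe was kept if either fraction had it well above background on both its arrays (27899 probes, less 2 with outlier spots). A gene was represented by its brightest probe, giving 13925 genes and 9622 unnamed probes. Venus-positive was tested against Venus-negative with limma 3.58.1 in R 4.3.3, 2-sided, with Benjamini-Hochberg adjustment over all 23547 features at a threshold of 0.05, on 2 residual and 1.8 prior degrees of freedom; the same fit on all probes kept served genes with several. SE and 95% intervals are moderated. The code was tested on simulated data.

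The members and gene lists were chosen with earlier results of these data known. Named genes were the members, Hoxb6, Kdr, every called gene of a guidance list, the 2 largest changes besides members in each list, and textbook ligand or receptor partners of a member; markers are named where called or well above background on no array, and Nes after its value was seen, except 1 blood marker that is not reported here, with the summed level that includes it. Same-numbered replicates deviated together (correlation 0.41 across features), but with 2 pairs and no stated pairing they were not blocked.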

Additional observations from a re-analysis of the deposited data

How the results depend on the processing

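Of 90 values (10 members under 9 processing alternatives), 81 kept their direction and their side of the threshold, 2 lost the call, 5 gained one and 2 turned sign; without 1 array the counts were 30 kept, 8 lost and 2 turned among 40. The planned model-based correction on the spot mean was not run because the tables used here give the spot median, which replaced it, a choice made after seeing the data. The reported counts were 394 genes, 6 guidance genes, 2 members and 3 member probes called in limma. With that correction (normexp) they were 1032, 14, 4 and 6, and with a signal-dependent prior 1247, 17, 4 and 6. With dim probes kept they were 0, 0, 0 and 0 (at an unadjusted p under 0.05, 1736 genes higher and 1783 lower, and 3 and 4 members). With the replicate block they were 711 genes and 7 member probes, with 7 guidance genes and 3 members (Sema3f added, adjusted p = 0.0498; Dpysl4 not called); the block rests on 2 pairs, and whether the numbers pair the cultures is not stated. Leaving out 1 array gave 0 to 0 calls for genes, guidance genes, members and member probes alike (1106 to 1514 genes higher and 1111 to 1333 lower at an unadjusted p under 0.05). The log2 change of Sema3c turned to 0.0028 with median centring and 0.028 with quantile normalization, and ranged from -0.40 to 0.27 without 1 array; the cause was not tested. Median centring called 259 genes higher and 296 lower, so that 53.3% of calls were lower against 65.2% in the reported fit, and moved the median of all genes from 0.01 to 0.08; Plxnd1 and Slit3 were called there too. Low signals limit Ntn1, Sema3c and Sema3e, whose log2 changes with normexp, which compresses dim signals, were -0.44, -0.11 and -0.48.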

Other observations

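Several guidance genes had probes that did not move alike, a pattern named after the values were seen. The brightest probe of Sema6d, a transmembrane semaphorin, had a log2 change of -0.12 ± 0.14 SE (limma adjusted p = 0.649), whereas its other probe gave 1.12 ± 0.16 SE (limma adjusted p = 0.0605 over all probes). For Srgap2, a Slit-Robo GAP gene, the brightest probe gave 0.80 ± 0.10 SE (adjusted p = 0.0594) and the other probe -0.15 ± 0.14 SE (adjusted p = 0.577 in limma). Trio, an effector that acts in netrin signalling, gave 0.53 ± 0.18 SE on its brightest probe, 0.61 ± 0.16 on another and -0.45 ± 0.11 on the third. Among the members, both measured probes of Plxnd1 and both of Sema3a gave changes of the same sign. This was not particular to members. The brightest and the other probe gave -1.12 and -1.15 for Dpysl4, and 0.81 and 0.75 for Unc5c. Which transcripts each probe reads was not examined.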
